A study of Mus musculus with 2 samples.

Results

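The genes described here build and load the vesicles that carry proteins between the endoplasmic reticulum (ER) and the Golgi apparatus. The set holds 51 genes, chosen by symbol, of 55487 in the tables: subunits of the COPI and COPII coats, Arf and Sar GTPases with their regulators, p24 proteins, cargo receptors, the tether Uso1 and a pair of ER-bound transcription factors. Each symbol matched 1 row in both tables. Their transcripts were measured by RNA sequencing in 2 libraries of pancreatic islet beta cells, the cells that make and secrete insulin, sorted from mice 2 months old. Both libraries came from 1 group, whose genotype label reads MytF/F; Myt2F/F; Myt3F/F; RipCre, that is, floxed alleles of the related zinc-finger factor genes Myt1, Myt2 (also Myt1l) and Myt3 (also St18) with a Cre recombinase driven by the rat insulin promoter. The labels give the sex as pooled for both libraries, and do not say how many mice were used or whether the second library, titled a duplicate, came from other animals. The p-values below concern only the spread in reads between these libraries. By the labels alone this spread could be technical, but the sex-linked and acinar genes given below show that the libraries did not hold the same mix of RNA. Controls were not analysed here, and nothing below sets mutant against control cells.

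COPII coats bud vesicles from the ER towards the Golgi, and COPI coats carry escaped ER residents and recycled receptors back. A small GTPase starts each coat: Sar1 for COPII and Arf1 for COPI. In beta cells this route carries proinsulin and the other granule proteins out of the ER.

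The libraries held 50121771 and 39003197 counted reads. Levels not scaled by length are given as CPM, the reads of a gene scaled to a common library total. Beta-cell markers dominated, led by Ins2 and Ins1, with all 8 detected and a sum of 167227 and 170786 CPM. Of 13 acinar markers, genes of the digestive enzyme cells led by Bhlha15 and Ctrb1, 11 were detected, with a sum of 254 CPM in library 1 against 766 CPM in library 2, and each was lower in library 1. Bhlha15 alone gave 126 and 179 CPM of these sums, with a log2 ratio of library 1 over library 2 of -0.50. The ratio of Ctrb1 was lower, at -1.99, from 31.2 and 124 CPM. The ductal marker Spp1 had 659 and 967 CPM and was also lower in library 1. Other islet cells were represented by the alpha-cell hormone Gcg (462 and 330.4 CPM), delta markers (Sst and Rbp4; 1653 and 1224 CPM) and PP markers (Ppy and Pyy; 975 and 1211 CPM). Sums were low for mesenchymal markers (Col3a1 and Col1a2 highest; 15.5 and 10.3 CPM), endothelial markers (Plvap and Pecam1; 13.5 and 10.5 CPM) and immune markers (C1qa and Cd68; 41.8 and 36.9 CPM). C1qa alone gave 39.1 and 35.3 CPM of the immune sums, and it was the only 1 of the 5 immune markers detected. No marker of any of these lists was at 0 in both libraries. The libraries also differed in sex-linked genes, with Xist, the RNA of the inactive X chromosome, at 5.01 and 653 CPM and 4 Y-linked genes at a sum of 293 and 170.0 CPM. The low Xist of library 1 goes against its label of pooled sexes, and the values of each library are therefore given apart throughout. In bulk RNA, fewer cells of a type and less RNA per cell cannot be told apart.

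All 51 genes were detected (each library at 1 CPM or above), against 55.3% of 21974 protein-coding genes. Together they took 1.12% of the reads in library 1 (exact 95% interval 1.117% to 1.123%) and 1.19% in library 2 (1.188% to 1.194%). Read counts per gene ran between 162 and 34505 in library 1 and between 146 and 30463 in library 2. The median level over the set, scaled by gene length as TPM (transcript abundance), was 105 TPM in library 1 and 118 TPM in library 2. Across the 13955 genes whose mean reached 1 CPM, the medians were 14.3 and 13.9 TPM. Of the 51 genes, 49 lay above the median of those 13955, and 37 lay above their 90th percentile of 72.1 TPM. The exceptions below the median were Sec31b and Tmed1. The 2 libraries differed little for most genes, with an SD of 5.50% of the mean at the median gene and 19.0% at the most variable, Tmed5.

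**Figure D1:**
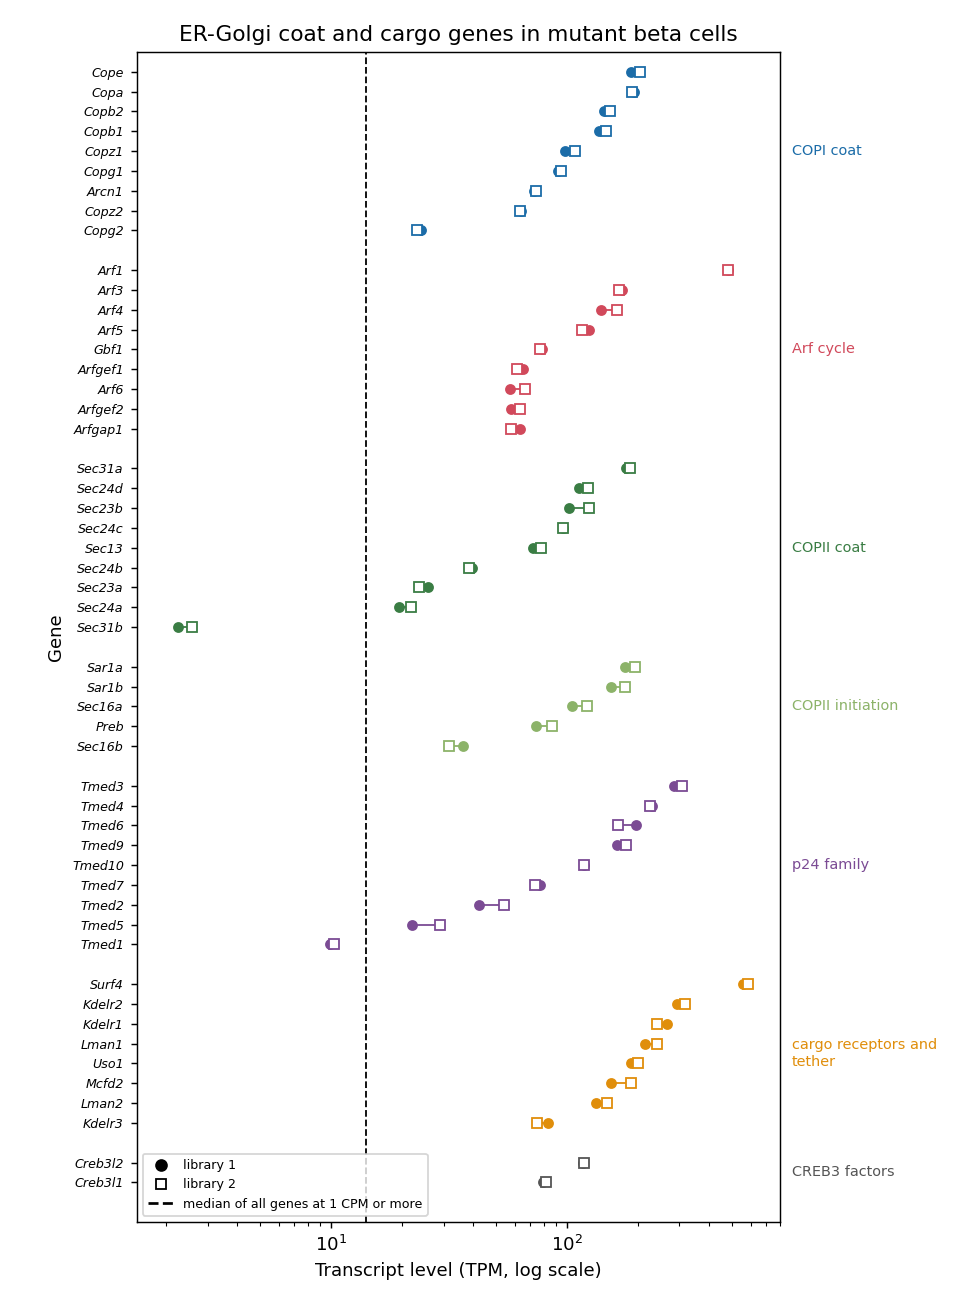
Transcript level (TPM, log scale) of each of the 51 genes, by role, in library 1 (filled circles) and library 2 (open squares). The dashed line is the median, 14.1 TPM, of the 13955 genes at 1 CPM or more. Surf4 and Arf1 lie farthest right, and Sec31b and Tmed1 lie left of the line.

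**Figure D2:**
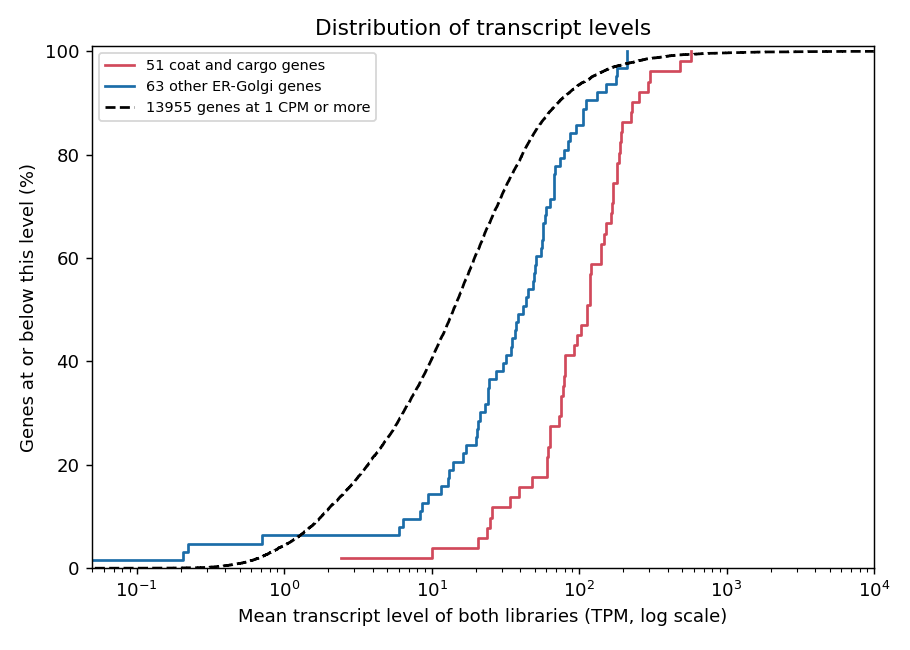
Share of genes at or below each mean level (TPM, log scale) for the 51 coat and cargo genes, 63 other ER-Golgi genes and the 13955 genes at 1 CPM or more. The median is 113 TPM for the coat and cargo genes, 41.7 TPM for the other ER-Golgi genes and 14.1 TPM for all genes shown.

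The promoters of some of these genes shared a short sequence that their selection by symbol did not use. The unfolded protein response element (UPRE) is known as a binding sequence of the stress factors XBP1 and ATF6, which raise secretory pathway genes when the ER is loaded. RefSeq promoter windows on GRCm38.p6, 250 bases before to 50 bases after an annotated start, were available for 43 of the 51 genes, some with several starts (50 windows). The UPRE letters TGACGTGG, searched on both strands, stood in 8 of these 43 genes (18.6%), against 193 of 27025 genes with a window (0.714%). Among genes outside the set with a mean level of 50 TPM or more, 23 of 1693 (1.36%) held it, against 6 of 35 genes of the set at that level (17.1%). The ER stress element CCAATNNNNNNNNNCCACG and its shorter form ATTGGNCCACG, also searched on both strands, stood in 0 of the 43 genes, against 37 and 12 of the 27025 genes. The last letters of UPRE, CGTGG, read CCACG on the opposite strand, as both ER stress element forms end, so that the motifs can overlap. A match describes the sequence only, and a window with no match says only that these letters are not in it. The genes without a window in the table are Arcn1, Arf6, Arfgef1, Creb3l1, Kdelr2, Lman1, Tmed2 and Tmed7.

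The matches are shown because they recur close to the start of genes from different steps of the route: COPI subunits, the GTPase Arf1, its activator Gbf1, COPII subunits, an ER exit site scaffold and a retrieval receptor. Each line gives 20 bases on either side, written 5′ to 3′ on the strand that reads TGACGTGG, with those letters in capitals.
Arf1, chr11:59228219-59228266, minus strand: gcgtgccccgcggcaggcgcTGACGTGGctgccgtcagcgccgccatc
Copb1, chr7:114254681-114254728, plus strand: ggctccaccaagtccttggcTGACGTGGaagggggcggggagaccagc
Copb2, chr9:98563704-98563751, minus strand: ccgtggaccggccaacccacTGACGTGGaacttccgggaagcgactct
Gbf1, chr19:46152526-46152573, minus strand: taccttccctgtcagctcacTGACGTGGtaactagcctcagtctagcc
Kdelr3, chr15:79516358-79516405, minus strand: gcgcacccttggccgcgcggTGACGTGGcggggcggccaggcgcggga
Sec16b, chr1:157506732-157506779, plus strand: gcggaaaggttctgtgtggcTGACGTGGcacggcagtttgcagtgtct
Sec23a, chr12:59011984-59012031, minus strand: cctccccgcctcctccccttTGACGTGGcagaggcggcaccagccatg
Sec24d, chr3:123267450-123267497, plus strand: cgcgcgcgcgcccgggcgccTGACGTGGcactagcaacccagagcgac
In 6 of the 8 genes the match began upstream of the annotated start, from 44 bases before it in Sec16b to 7 bases before it in Copb2, where it reached the start itself. In Sec23a it began 6 bases after the start. Arf1 has a pair of annotated starts, and its match began 84 bases before one and 21 bases after the other. Sec16b also has another annotated start, whose window at chr1:157525920-157526219 held no match. The match read in the direction of the gene in Arf1, Sec16b, Sec23a and Sec24d, and in the opposite direction in Copb1, Copb2, Gbf1 and Kdelr3. The 8 genes had a median of 98.5 TPM, ranging from 24.7 TPM (Sec23a) to 480.1 TPM (Arf1). The 35 genes with a window and no match had a median of 118 TPM, ranging from 2.42 to 572 TPM, so the levels overlapped.

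The COPI coat, or coatomer, is a complex of 7 subunits, and all of them were well above the level of most genes. Copa encodes the alpha subunit and stood at 192 TPM in library 1 and 189 TPM in library 2. Cope, the epsilon subunit, stood at 187 and 205 TPM. The cage subunit Copb2 (beta prime) had 143 and 152 TPM, and Copb1 (beta), which belongs to the inner layer, had 136 and 147 TPM. These 4 lay above at least 95.9% of the genes at 1 CPM or more. Lower levels were found for Copz1 (zeta), with 98.1 and 109 TPM, for Copg1 (gamma), with 91.8 and 94.1 TPM, and for Arcn1 (delta), with 72.6 and 73.7 TPM. The subunits are known to assemble in equal number. By TPM the highest of the 7 exceeded the lowest 2.65-fold in library 1 and 2.78-fold in library 2. This order holds per length only. The merged exons of all annotated transcripts run to 14915 bases for Arcn1 and 11011 for Copg1, against 3353 for Cope. By CPM, Arcn1 with 393 and 404 CPM lay above Cope with 227 and 252 CPM and Copz1 with 130 and 146 CPM. Protein was not measured.

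The gamma and zeta subunits each have a second gene, and in both cases the copy numbered 1 was the higher. Copg2 had 24.1 and 23.3 TPM. Copg1 exceeded it 3.81-fold in library 1 (95% interval of the reads 3.64 to 3.98) and 4.05-fold in library 2 (3.85 to 4.26). The size of this lead depends on the scaling by length: by CPM the ratios were 8.19 and 8.70. The exons of Copg2 overlap those of Mest, and 16.3% of its 50-base words are found elsewhere in the annotation, which makes its count uncertain. Overlaps with antisense genes also touch Copa, with 8.31% of words shared, and Copg1, with 7.60%. Copz2 was closer to its partner at 63.7 and 63.3 TPM. Copz1 exceeded it 1.54-fold in library 1 (1.47 to 1.61) and 1.72-fold in library 2 (1.63 to 1.81).

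Among the Arf GTPases, which recruit COPI and other coats once loaded with GTP, Arf1 was the leading transcript. Arf1 had 479.9 TPM in library 1 and 480.3 TPM in library 2, a mean of 480.1 ± 0.286 TPM (SD, n = 2) and above 99.3% of genes. It took 49.3% and 48.4% of the summed TPM of the 5 Arf genes that are in the set. The next was Arf3, the closest relative of Arf1, with 171 and 165.5 TPM. Arf1 exceeded it 2.80-fold (2.74 to 2.86) and 2.90-fold (2.83 to 2.97). By CPM this lead was smaller, with ratios of 1.21 and 1.26. The count of Arf1 is uncertain as well, since 10.5% of its words occur elsewhere, chiefly in a processed pseudogene.

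The class II pair, Arf4 and Arf5, which act at the ER-Golgi boundary, stood close together per length. Arf4 had 139.5 and 163 TPM and Arf5 had 124 and 116 TPM. The ratio of Arf5 over Arf4 was 0.890 in library 1 (0.858 to 0.923) and 0.710 in library 2 (0.681 to 0.740). By CPM it was 0.471 and 0.376. Both counts are uncertain, because Arf4 shares 13.3% of its words with other genes, chiefly Pde12, and Arf5 shares 13.7%, chiefly with Gcc1. Arf6, which acts at the plasma membrane and on endosomes, was the lowest of these 5 Arf genes at 57.7 and 66.3 TPM, with 7.68% of its words shared with the overlapping Gm9887.

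The regulators of the Arf cycle had similar levels. Gbf1, the exchange factor that loads Arf at the early Golgi, had 78.2 and 77.1 TPM. The late Golgi exchange factors had 65.0 and 61.7 TPM (Arfgef1) and 58.0 and 63.3 TPM (Arfgef2). Their order was not settled: Arfgef2 over Arfgef1 was 0.894 in library 1 (0.870 to 0.918) and 1.03 in library 2, where the interval of 0.997 to 1.06 includes 1. Arfgap1, which triggers GTP hydrolysis on Arf1, had 63.2 and 57.8 TPM.

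COPII assembly starts at ER exit sites, where Preb, the mammalian Sec12, loads Sar1 with GTP on a scaffold of Sec16. Preb had 73.6 TPM in library 1 and 86.5 TPM in library 2, and shares 17.8% of its words with other genes, chiefly the neighbouring Abhd1. Both Sar1 genes were high, with 177 and 194 TPM for Sar1a and 154 and 177 TPM for Sar1b. Sar1a exceeded Sar1b 1.15-fold in library 1 (1.11 to 1.20) and 1.10-fold in library 2 (1.06 to 1.14). This near equality holds per length: by CPM, where the longer Sar1a collects more reads, the ratios were 3.43 and 3.28. The scaffold Sec16a had 105 and 121 TPM, and its shorter relative Sec16b had 36.2 and 31.6 TPM. Sec16a exceeded Sec16b 2.91-fold (2.81 to 3.02) and 3.84-fold (3.68 to 4.01).

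In the COPII coat itself, Sec23 and Sec31 each had a clear leading paralog. Sec23, the GTPase-activating subunit of the inner layer, came mainly from Sec23b, with 102 and 124 TPM, while Sec23a had 25.8 and 23.6 TPM. Sec23b exceeded Sec23a 3.96-fold in library 1 (3.78 to 4.14) and 5.23-fold in library 2 (4.97 to 5.51). Sec23a shares 7.86% of its words, chiefly with the antisense gene Gm17529. In the outer layer, Sec31a had 178 and 185 TPM and its partner Sec13 had 72.1 and 77.6 TPM. Sec31b was the lowest of all 51 genes, at 2.25 and 2.58 TPM, from 162 and 146 reads, or 3.23 CPM (95% interval 2.75 to 3.77) and 3.74 CPM (3.16 to 4.40). Sec31a exceeded it 78.9-fold (67.6 to 92.7) and 71.6-fold (60.8 to 84.8), the widest ratio among the 17 pairs compared.

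Sec24 binds cargo and gives the inner layer its choice of proteins, and its 4 genes fell into a higher and a lower pair. Sec24d, at 113 and 123 TPM, and Sec24c, at 96.2 and 96.3 TPM, form one subclass by sequence. They held 42.1% and 44.1% (Sec24d) and 35.9% and 34.4% (Sec24c) of the summed Sec24 TPM. The other subclass was lower, with 39.6 and 38.4 TPM for Sec24b and 19.5 and 21.9 TPM for Sec24a. The ratio of Sec24d over Sec24c was 1.17 (1.14 to 1.20) and 1.28 (1.24 to 1.32), and that of Sec24a over Sec24b was 0.492 (0.471 to 0.514) and 0.571 (0.544 to 0.599). The order of Sec24a and Sec24b holds per length only: by CPM the ratios were 0.873 and 1.01, and the pair was no longer called different.

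Sec24a and Sar1b are neighbours that point away from each other. In GENCODE M21 on GRCm38, Sec24a lies at chr11:51692264-51763634 on the minus strand with 24 merged exons, and Sar1b lies at chr11:51763687-51791925 on the plus strand with 8. In that annotation 52 bases separate the starts, whereas the RefSeq window of Sec24a, at chr11:51756785-51757084, lies inside the GENCODE gene, at another start. Per length their levels differed, with Sec24a at a mean of 20.7 ± 1.73 TPM and Sar1b at 165 ± 16.3 TPM (SD, n = 2). By CPM, where the longer Sec24a collects more reads, Sec24a was slightly the higher. It had 75.5 and 86.0 CPM, against 70.0 and 81.5 CPM for Sar1b. Both were lower in library 1 than in library 2, with log2 ratios of -0.19 and -0.22.

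**Figure D3:**
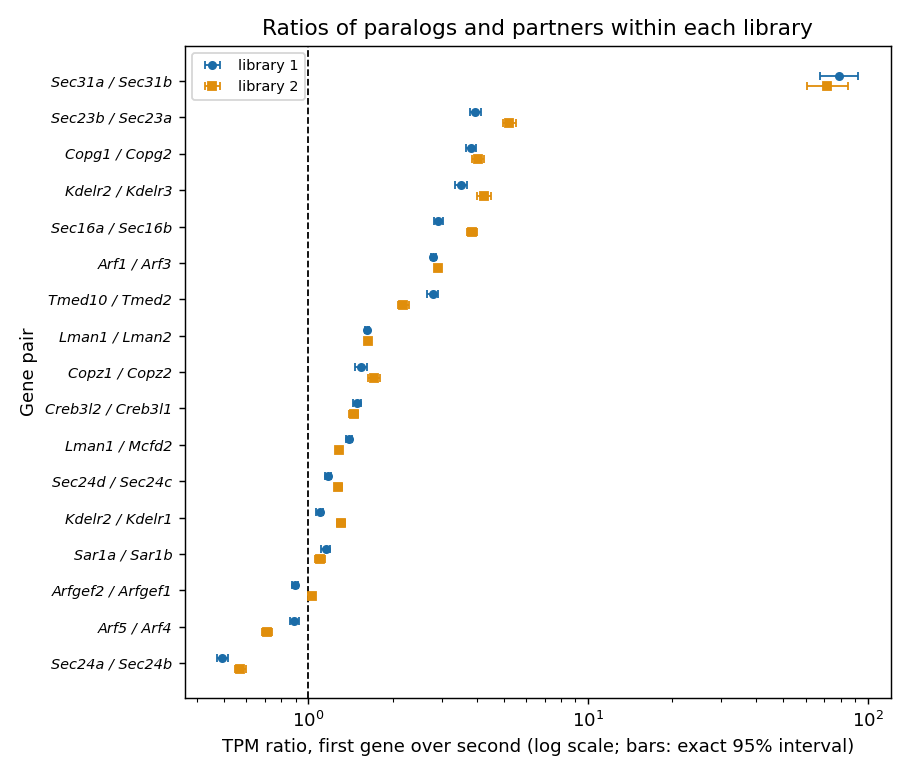
TPM ratio of the first gene over the second (log scale) for 17 pairs of paralogs or partners, in library 1 (blue circles) and library 2 (orange squares), with exact 95% intervals that cover counting error only. Sec31a over Sec31b stands far to the right at 78.9 and 71.6, and Arfgef2 over Arfgef1 lies on either side of 1.

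The p24 proteins are small membrane proteins that cycle between ER and Golgi in mixed complexes and help to sort cargo, and their transcripts ranged over 29.2-fold. Tmed3 led with 284 TPM in library 1 and 306 TPM in library 2. Tmed4 followed with 229 and 225 TPM, then Tmed6 with 196 and 165 TPM and Tmed9 with 163 and 179 TPM. Tmed3 and Tmed6 are gamma members of the family, and Tmed4 and Tmed9 alpha members. Tmed6 is a short gene with 871 bases of merged exons, so its 62.0 and 52.6 CPM make a high level per length.

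The delta member Tmed10 had 118 and 118 TPM, a mean of 117.9 ± 0.325 TPM (SD, n = 2). Its partner in the best known p24 complexes is the beta member Tmed2, which had 42.4 and 54.0 TPM. Tmed10 exceeded Tmed2 2.78-fold in library 1 (2.65 to 2.92) and 2.19-fold in library 2 (2.08 to 2.30). However, Tmed2 shares 22.0% of its words with other genes, chiefly a processed pseudogene. That is the highest share in the set, and the count of Tmed2 is uncertain. Tmed10 shares 8.40% of its words, chiefly with the processed pseudogene Tmed10-ps. The remaining gamma members were Tmed7 with 76.9 and 73.4 TPM, Tmed5 with 22.1 and 29.0 TPM and Tmed1 with 9.88 and 10.3 TPM. Tmed7 shares 12.2% of its words, chiefly with the overlapping Ticam2, and Tmed1 shares 9.55%, chiefly with Dnm2. For Tmed5 the share is 6.39%, chiefly with the overlapping Mtf2.

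Cargo receptors and the tether formed the highest group, with a median of 201 TPM in library 1 and 221 TPM in library 2. Surf4, an export receptor for soluble secreted proteins, was the highest of all 51 genes at 557 and 588 TPM, a mean of 572 ± 21.5 TPM (SD, n = 2), above 99.4% of genes. It lies at chr2:26920040-26933928 on the minus strand with 6 merged exons. Uso1, the coiled-coil tether of ER-derived vesicles, had 187 and 201 TPM.

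KDEL receptors return ER chaperones from the Golgi, and 2 of the 3 genes supplied most of the transcripts. Kdelr2 had 293 and 316.5 TPM and Kdelr1 had 267 and 242 TPM. Kdelr2 exceeded Kdelr1 1.10-fold in library 1 (1.07 to 1.13) and 1.31-fold in library 2 (1.27 to 1.35). Kdelr3, one of the genes with a UPRE match, had 83.3 and 74.7 TPM, or 13.0% and 11.8% of the summed TPM of the receptors. It was exceeded by Kdelr2 3.52-fold (3.35 to 3.69) and 4.24-fold (4.01 to 4.48).

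Both lectin receptors of the set, Lman1 and Lman2, were abundant. Lman1, which carries glycoproteins out of the ER, had 215 and 241 TPM. Mcfd2, the soluble protein with which it forms a receptor for clotting factors, had 155 and 187 TPM, so that Lman1 exceeded it 1.39-fold (1.36 to 1.43) and 1.29-fold (1.26 to 1.32). Lman2, a related lectin that cycles through the Golgi, had 133 and 147 TPM. The ratio of Lman1 over Lman2 was 1.62 (1.59 to 1.65) and 1.64 (1.61 to 1.67), the closest pair of library values among the ratios.

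Creb3l1 and Creb3l2 encode transcription factors held in the ER membrane and released by cleavage in the Golgi. In mouse cartilage and bone they are known to drive secretory genes, with Sec23a a known target of Creb3l2. Creb3l2 had 118 and 118 TPM and Creb3l1 had 78.9 and 81.5 TPM. Creb3l2 exceeded Creb3l1 1.49-fold in library 1 (1.44 to 1.54) and 1.45-fold in library 2 (1.39 to 1.51). Sec23a, at 25.8 and 23.6 TPM, was among the lower genes of the set.

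Of the 17 pairs, 16 had intervals on the same side of 1 in both libraries. The exception was Arfgef2 over Arfgef1. These intervals cover the reads only, and the SD between libraries of the log2 ratio ran from 0.01 for Lman1 over Lman2 to 0.29 for Sec23b over Sec23a.

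The libraries differed modestly in these genes. No gene of the set reached a 2-fold difference with an adjusted p under 0.05, against 4.31% of the 20681 genes tested, and none reached 1.5-fold, against 8.05%. The p-values came from an exact two-sided binomial test of the reads, with Benjamini-Hochberg adjustment over all genes tested. The small differences leaned one way: 36 of the 51 genes were lower in library 1 than in library 2, with a median log2 ratio of -0.09, whereas the median over the genes at 1 CPM or more was 0.03. Scaled by TMM or by size factors, 42 of the 51 were lower in library 1, with a median of -0.14 under both and -0.01 over the same genes. At an adjusted p under 0.05 with no fold limit, 28 of the 51 were lower in library 1 (13.4% of all genes tested) and 7 were higher (19.0% of all genes tested). Deeply counted genes pass such a test more readily. Among the 5887 genes whose mean reached 30 CPM, 25.2% were lower and 32.0% were higher, against 28 and 7 of the 49 genes of the set at that level. The acinar markers, all 13 lower in library 1, and the ductal marker Spp1 moved the same way, and their part in this difference was not tested.

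The largest of these differences were those of Tmed5 and Tmed2, both p24 genes. Tmed5 stood at 61.7 CPM in library 1, against 81.9 CPM in library 2, with a log2 ratio of -0.41 (exact binomial test, adjusted p = 1.96e-27). For Tmed2, whose count is uncertain, the levels were 38.8 and 50.1 CPM, with a log2 ratio of -0.37 (adjusted p = 3.37e-14, exact binomial test). Sec23b and Mcfd2 each had a log2 ratio of -0.29, and Preb and Arf4 had -0.25 and -0.24. All 5 COPII initiation genes passed the test, of which 4 were lower in library 1, against 25.2% of genes at 30 CPM or more that passed as lower and 32.0% as higher. The exception was Sec16b, with 71.1 and 62.7 CPM and a log2 ratio of 0.18. The highest ratio was that of Tmed6, with 62.0 and 52.6 CPM and a log2 ratio of 0.24 (adjusted p = 6.46e-08, exact binomial test). Of the receptors and tether, all 8 passed, against the same shares, and Kdelr1 and Kdelr3 were the ones higher in library 1, at log2 ratios of 0.12 and 0.14. Neither CREB3 factor passed.

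**Figure D4:**
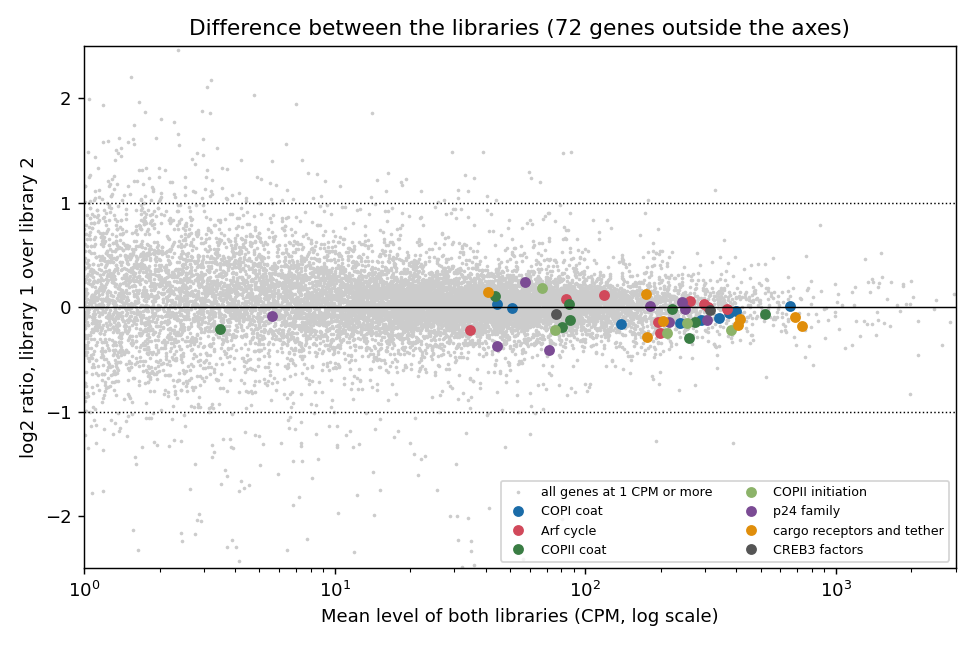
Log2 ratio of library 1 over library 2 against mean level (CPM, log scale) for the 51 genes, coloured by role, and for all genes at 1 CPM or more (grey; 72 lie outside the axes). Dotted lines mark 2-fold. The coloured points lie between -0.41 and 0.24, with 36 of 51 below 0.

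Other genes of the route had a lower median than the coat and cargo genes. Of 63 further ER-Golgi genes (SNAREs, TRAPP and golgin tethers, ER exit factors and relatives of the genes above), 59 were detected, with a median of 42.2 TPM in library 1 and 43.1 TPM in library 2. The highest were Mia3, an ER exit site protein for bulky cargo, with 201 and 224 TPM, the Golgi GTPase Arl1 with 208 and 215 TPM, and Gorasp2, a Golgi stacking protein, with 175 and 185 TPM. Arfgap3, an Arf GTPase activator, had 169 and 186 TPM, and Gosr2, a Golgi SNARE, had 147 and 159 TPM. Not detected were 4 relatives of the genes above, namely Tmed11 with 0.0200 and 0 CPM, Lman1l with 0.120 and 0.154 CPM, Creb3l3 with 0.299 and 0.154 CPM and Creb3l4 with 0.459 and 0.410 CPM. By the limit of 3 reads, a count of 0 in library 2 allows up to 0.0769 CPM, for counting error only. Between the libraries, 39 of the 63 were lower in library 1, with a median log2 ratio of -0.06. Of the 62 tested, 23 passed as lower in the exact binomial test, against 13.4% of all genes tested, and 9 as higher, against 19.0%. None reached 1.5-fold, against 8.05%.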

How the data were processed

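RNA of sorted beta cells was sequenced in 2 libraries of 1 group. The raw count, TPM and CPM per gene were deposited by the authors, per the file headers. Trimming, alignment and counting tools listed in the submitters' processing notes are cutadapt 2.10, STAR 2.7.8a and featureCounts 2.0.2, with build GRCm38.p6. The library kit in the labels does not mark strand. Not given in the sources used here are the counting parameters, including those for multimapping reads, so reads of overlapping genes and near copies may be lost or misplaced. The share of 50-base words that each gene has in common with other genes of GENCODE M21, on either strand, was computed for this reason.

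The members and gene lists were chosen with earlier results of these data known. All 51 members are named. Of the other ER-Golgi genes, the 5 highest and 3 lowest by mean TPM are named, with Creb3l4 added after its values were seen, as are Xist and the Y-linked genes. Of each marker list, the 2 highest by mean CPM are named, except that the alpha and ductal lists are given by their highest gene alone, and the rest of them is not reported here. Levels are given per library, with the SD over 2 libraries. Paralog ratios used TPM, with exact Clopper-Pearson 95% intervals of the split of reads, rescaled by length. The libraries were compared with an exact binomial test over the 20681 genes with 10 or more reads in sum, with 0.5 read added to the ratios. It was tried on simulated data that held only counting error and planted changes. That trial therefore cannot show how the test behaves under other spread between libraries. The exact intervals, and the limit of 3 reads that a count of 0 allows, reflect counting error alone: without molecular identifiers, duplicate reads of 1 molecule cannot be recognised. With 1 group, edgeR's quasi-likelihood test could not be run. Alternatives were other detection limits, CPM, single libraries, a 1.5-fold limit, no filter on low counts, and scaling by TMM (edgeR 4.0.16) or size factors (DESeq2 1.42.0). The comparison with genes at 30 CPM or more and the background of promoter shares at 50 TPM or more were chosen after seeing the data. Python 3.11.15, SciPy 1.17.1 and R 4.3.3 were used.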

Additional observations from a re-analysis of the deposited data

How the results depend on the processing

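Detection of all 51 genes held at 1 TPM and in either library alone. At 5 CPM, 50 were detected. Of the 63 other ER-Golgi genes, 58 were detected at 5 CPM, and 59 in either library alone. Of the 51 genes, 0 were called different between the libraries at 1.5-fold, and 0 at 2-fold with TMM, size factors or no filter, where 865, 863 and 735 of all genes were called. The median log2 ratio was -0.14 under TMM and under size factors. With CPM in place of TPM, the group medians were 288 (COPI coat), 199 (Arf cycle), 87.1 (COPII coat), 211 (COPII initiation), 180.4 (p24 family), 304 (cargo receptors and tether), 195 (CREB3 factors) and 211 CPM (all members), because long genes collect more reads. The ratio of Arfgef2 over Arfgef1 had a log2 value of -0.06 over both libraries, with -0.16 without library 2 and 0.038 without library 1. Its sign thus turned with the library, and the cause was not tested. By CPM its log2 value was -0.43, and that of Sec24a over Sec24b was -0.09, no longer different in both libraries. The other ratios kept their direction. No paired analysis was possible because there was only 1 group. Depth was lowest for Sec31b (162 and 146 reads) and Tmed1 (273 and 225 reads), whose values carry the widest counting intervals.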
